A study of Mus musculus with 10 samples.

Results

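The RNA of sorted erythroid precursors held neutrophil granule transcripts in every mouse, at levels whose ranges overlapped between the genotypes in every comparison made. The genes described here are 10 of the 24421 genes in the raw count table, taken by symbol and followed in every mouse. Elane, Mpo, Prtn3 and Ctsg encode proteins of the primary (azurophil) granules. Ltf, Ngp, Camp and Lcn2 encode proteins of the secondary (specific) granules. S100a8 and S100a9 encode the subunits of calprotectin, an abundant protein of the neutrophil cytosol.

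R2 cells, the CD71+Ter119+ erythroid precursors, were sorted from the leg bone BM of 10 mice 8 weeks post-transplant. The recipients were BoyJ mice, lethally irradiated and given 1000000 BM mononuclear cells. The donor cells were Ddx41+/+ Trp53+/+ (3 mice, replicates 10, 11 and 12), Ddx41+/- Trp53+/+ (2 mice, 32 and 34), Ddx41+/+ Trp53+/- (3 mice, 22, 23 and 24) or Ddx41+/- Trp53+/- (2 mice, 46 and 47). All 4 genotypes, controls included, carried Rosa-CreERT2 and were given tamoxifen, 1 mg in 50 µl of corn oil, in 2 rounds of 5 days. One Ddx41 allele was floxed in the Ddx41+/- donors and was deleted by the tamoxifen, whereas the Trp53+/- donors were born with 1 Trp53 allele. The Rosa26 promoter that drives this Cre is active in nearly all cell types, and blood cells of the host that outlived the irradiation could also be in the sort. Ages were not given.

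Neutrophils fill their granules in sequence. Promyelocytes make the primary granules, with the serine proteases and myeloperoxidase, and switch these genes off as they mature. Myelocytes and metamyelocytes then make the secondary granules, with lactoferrin, cathelicidin and lipocalin, and the S100 proteins accumulate up to the mature neutrophil. The primary granule genes therefore mark an early stage and the others later stages, and none of them is a typical product of erythroid cells. In sorted bulk RNA, a change in the number of such cells and a change in the RNA per cell cannot be told apart.

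The libraries held 7866648 to 20283930 counts (median 16614386), with the Ddx41+/- Trp53+/+ mouse 34 at the bottom of that range. The sorted cells carried the erythroid genes of their label. The anion exchanger Slc4a1 stood at 25470 to 30510 counts per 1000000 counts (CPM), and the summed erythroid markers varied only 1.14-fold over the mice. The 6 adult globin symbols in the table reached at most 1.28 CPM, or 21 counts, so every CPM here is relative to libraries almost without globin counts, and the reason was not tested. Ddx41 was lower in the Ddx41+/- mice, by a log2 fold change of -0.63 with Trp53+/+ and -0.78 with Trp53+/-. Neither passed the test after adjustment over all tested genes (adjusted p = 0.0887 and 0.177, unadjusted p = 0.000985 and 0.000105, edgeR quasi-likelihood). Its level was 12.5 to 16.5 CPM in the Ddx41+/- mice and 21.9 to 26.6 CPM in the Ddx41+/+ mice. Trp53 was lower in the Trp53+/- mice by -0.42 with Ddx41+/+ (adjusted p = 0.0327, with a fold change under the limit of 1.5) and by -0.55 with Ddx41+/- (adjusted p = 0.063).

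The genes lie on 6 chromosomes (GENCODE M21 on GRCm38). Prtn3 (chr10:79874476-79883174) and Elane (chr10:79886247-79888215) are neighbors on the plus strand with starts 11.77 kb apart. S100a8 (chr3:90668978-90670035, plus strand) and S100a9 (chr3:90692632-90695721, minus strand) have starts 26.74 kb apart. Camp (chr9:109847379-109849617, minus strand), Ngp (chr9:110419747-110423012, plus strand) and Ltf (chr9:111019271-111042767, plus strand) share 1.17 Mb of chromosome 9. Mpo (chr11:87793581-87804413, plus strand) is on the chromosome of Trp53, 18.21 Mb away. Ctsg (chr14:56099881-56102574) and Lcn2 (chr2:32384633-32388252) are both on the minus strand. No stretch of 75 bases in the longest transcript of any of the 10 genes occurred unchanged in a transcript of another gene. Copies that differ by a few bases were not looked for.

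All 10 genes had a promoter in the RefSeq table (GRCm38.p6, 250 bases before to 50 bases after the start). The letters AGGAAGT, the core recognized by PU.1 and related ETS factors, were found on either strand in 4 of the 4 primary granule promoters and in 1 of the 6 others (S100a8), against 9.35% of all 32851 promoters. They were not particular to the primary granule genes. Promoters of 6 of 13 other granule and secreted neutrophil genes and 5 of 8 monocyte and macrophage markers held them. Those of 3 phagocyte NADPH oxidase genes and 5 granulocyte transcription factors did not. The following stretches of the primary granule promoters are shown because they hold the letters these 4 genes share. They are written 5′ to 3′ on the strand of the gene, with the match in capitals.
Elane: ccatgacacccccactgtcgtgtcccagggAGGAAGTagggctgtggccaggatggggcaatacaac
Prtn3: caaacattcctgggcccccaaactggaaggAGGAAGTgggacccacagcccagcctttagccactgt
Mpo: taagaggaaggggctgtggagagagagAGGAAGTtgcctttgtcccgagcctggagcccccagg
Ctsg: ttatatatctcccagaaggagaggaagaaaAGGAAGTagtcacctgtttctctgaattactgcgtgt
These lie at chr10:79886198-79886264 (Elane, plus strand), chr10:79879543-79879609 (Prtn3, plus strand), chr11:87793534-87793597 (Mpo, plus strand) and chr14:56102744-56102810 (Ctsg, minus strand). The match starts 84 bases before the RefSeq start of Elane, 94 before that of Prtn3, 223 before that of Mpo and 206 before that of Ctsg. The last bases of the Elane and Mpo stretches fall in the first exon of the GENCODE gene, and the Prtn3 stretch in an intron of its longest annotated transcript.

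The letters TTGCNNAA, a C/EBP core, were found on either strand in 4 of the 6 secondary granule and S100 promoters (Ltf, Ngp, Lcn2 and S100a9) and in 0 of the 4 primary granule promoters, against 10.8% of all promoters. They were also in 6 of 13 promoters of other granule and secreted neutrophil genes, but in 1 of 11 of neutrophil receptor and adhesion genes. A pair of the secondary granule promoters is shown for contrast, again with the match in capitals.
Ltf: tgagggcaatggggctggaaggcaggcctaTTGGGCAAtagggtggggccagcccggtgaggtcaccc
Ngp: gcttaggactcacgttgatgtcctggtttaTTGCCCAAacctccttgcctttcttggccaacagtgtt
They lie at chr9:111019187-111019254 (Ltf, with the match on the opposite strand 75 bases before the start) and chr9:110419640-110419707 (Ngp, 138 bases before the start), both upstream of the GENCODE gene. The letters AGATAA, bound by the erythroid GATA factors, were in the promoters of Ltf and S100a9 and in 11.2% of all promoters. The 3 motifs were chosen with the genes known, and a match describes letters in a window and not a bound site.

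The levels of the 10 genes fell into 2 tiers. Per kilobase of exon, S100a9 had the highest median level over the mice (3217 CPM per kb), followed by S100a8 (1273), Ngp (1210), Camp (506), Ltf (300.2) and Lcn2 (171). The primary granule genes came after a gap, with Mpo at 34.1, Elane at 30.6, Prtn3 at 16.9 and Ctsg at 14.4 CPM per kb. The ranges over mice overlapped between the neighbors S100a8 and Ngp, between Ltf and Lcn2, and among the 4 primary granule genes, but not between the tiers. All 10 passed the filter on low counts, and the mean log2 CPM of each secondary granule and S100 gene was above that of 96.1% to 99.6% of the 11846 tested genes, against 48.2% to 85.3% for the primary granule genes. Together the 10 genes took 0.485% to 0.852% of all counts in a library.

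The primary granule genes moved together from mouse to mouse. Inside the genotypes their sum ranged 2.82-fold (Ddx41+/+ Trp53+/+), 1.82-fold (Ddx41+/- Trp53+/+), 3.24-fold (Ddx41+/+ Trp53+/-) and only 1.35-fold (Ddx41+/- Trp53+/-). Elane, the neutrophil elastase, was at 43.0, 14.9 and 37.2 CPM in the Ddx41+/+ Trp53+/+ mice 10, 11 and 12. It was at 36.6 and 19.3 CPM in the Ddx41+/- Trp53+/+ mice 32 and 34, at 31.5, 15.1 and 61.0 CPM in the Ddx41+/+ Trp53+/- mice 22, 23 and 24, and at 28.7 and 19.5 CPM in the Ddx41+/- Trp53+/- mice 46 and 47. The highest and the lowest of the 10 mice for Elane were thus both Ddx41+/+, and the ranges of the 4 genotypes overlapped.

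Mpo, the peroxidase that makes hypochlorous acid, was the most abundant of the 4. It was at 154, 54.7 and 138 CPM in mice 10, 11 and 12, at 138 and 80.5 CPM in mice 32 and 34, at 121, 74.3 and 224 CPM in mice 22, 23 and 24, and at 112 and 91.5 CPM in mice 46 and 47. The order was close to that of Elane, with mouse 24 at the top and mouse 11 at the bottom, and the ratio of Elane to Mpo counts stayed between 0.203 and 0.279.

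Prtn3, the serine protease proteinase 3, was at 42.3, 13.4 and 32.4 CPM in mice 10, 11 and 12, and at 38.0 and 19.2 CPM in mice 32 and 34. It was at 26.1, 14.5 and 56.6 CPM in mice 22, 23 and 24, and at 33.6 and 17.2 CPM in mice 46 and 47. In CPM, its levels were close to those of its neighbor Elane in every mouse. Per kilobase of exon its median was lower, 16.9 against 30.6 CPM per kb.

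Ctsg, the serine protease cathepsin G, was the rarest, with 61 to 459 counts in a library. It was at 13.8, 6.66 and 17.0 CPM in mice 10, 11 and 12, at 18.7 and 7.75 CPM in mice 32 and 34, at 15.3, 9.95 and 26.7 CPM in mice 22, 23 and 24, and at 17.3 and 14.4 CPM in mice 46 and 47. All 4 genes were highest in mouse 24 and lowest in mouse 11, with 4.01-fold (Ctsg) to 4.24-fold (Prtn3) between them. Their SD within genotypes, 0.685 (Ctsg) to 0.853 (Prtn3) on the log2 scale, was larger than that of 92.3% to 96.3% of the tested genes, whose median was 0.194.

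**Figure D1:**
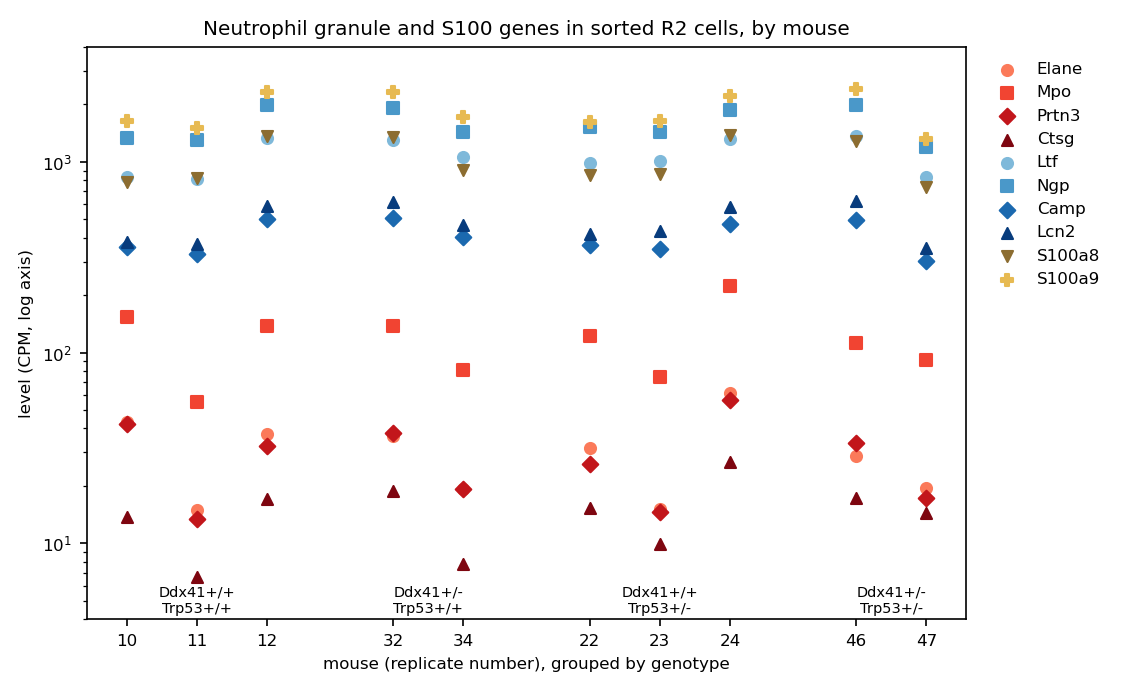
Level of the 10 genes (CPM, log axis) in each of the 10 mice, grouped by genotype; every point is 1 gene in 1 mouse, with primary granule genes in red, secondary granule genes in blue and S100 genes in yellow and brown. The primary granule genes lie below the others in every mouse, and all 4 are lowest in mouse 11 and highest in mouse 24.

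The secondary granule genes had higher levels and, over the 10 mice, a smaller spread. In Ddx41+/- Trp53+/- mice, however, their sum ranged 1.67-fold, against 1.35-fold for the primary granule genes. Ltf, which encodes the iron-binding lactoferrin, was at 832, 813 and 1329 CPM in mice 10, 11 and 12, and at 1300.5 and 1058 CPM in mice 32 and 34. It was at 983, 1013 and 1323 CPM in mice 22, 23 and 24, and at 1361 and 837 CPM in mice 46 and 47. One mouse of each genotype (12, 32, 24 and 46) stood at 1300.5 CPM or above, and the other 6 mice stood at 1058 CPM or below.

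Ngp, the neutrophilic granule protein of the cystatin family, was split in the same way. It was at 1325, 1300.4 and 1992 CPM in mice 10, 11 and 12, at 1914 and 1427 CPM in mice 32 and 34, at 1519, 1438 and 1870.0 CPM in mice 22, 23 and 24, and at 1997 and 1192 CPM in mice 46 and 47. The ratio of Ltf to Ngp counts stayed between 0.625 and 0.742.

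Camp, which encodes the antimicrobial peptide cathelicidin, was at 356, 329.5 and 503 CPM in mice 10, 11 and 12, and at 505 and 401 CPM in mice 32 and 34. It was at 366, 348 and 472 CPM in mice 22, 23 and 24, and at 493 and 302 CPM in mice 46 and 47. The same 4 mice stood above the other 6.

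Lcn2, the lipocalin that binds bacterial siderophores, was at 379.8, 372 and 586 CPM in mice 10, 11 and 12, and at 615 and 467 CPM in mice 32 and 34. It was at 418, 431 and 579 CPM in mice 22, 23 and 24, and at 623 and 354 CPM in mice 46 and 47. The highest and the lowest level of Lcn2 thus came from mice of 1 genotype, Ddx41+/- Trp53+/-. For the 4 secondary granule genes, the highest mouse was 1.67-fold to 1.76-fold above the lowest.

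The S100 genes followed the secondary granule genes. S100a8 was at 782, 823 and 1366 CPM in mice 10, 11 and 12, at 1347 and 907 CPM in mice 32 and 34, at 856, 859.5 and 1378 CPM in mice 22, 23 and 24, and at 1286 and 739.6 CPM in mice 46 and 47. S100a9 was at 1638, 1496 and 2336 CPM in mice 10, 11 and 12, at 2314 and 1721 CPM in mice 32 and 34, at 1627, 1638 and 2214 CPM in mice 22, 23 and 24, and at 2398 and 1319 CPM in mice 46 and 47. Mice 12, 32, 24 and 46 were again above the other 6, and the ratio of S100a8 to S100a9 counts stayed between 0.478 and 0.622. The SD within genotypes of the secondary granule and S100 genes was 0.324 (Camp) to 0.445 (S100a8) on the log2 scale, larger than that of 70.1% to 81.3% of the tested genes.

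**Figure D2:**
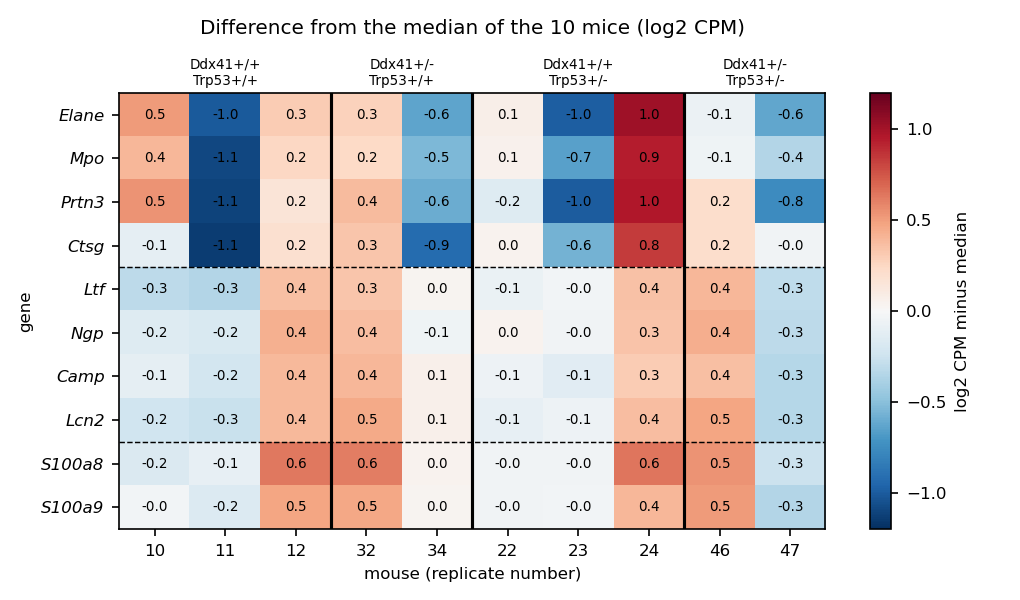
Difference of each gene's log2 CPM in each mouse from that gene's median over the 10 mice, with genes as rows in the order primary granule, secondary granule and S100, mice as columns grouped by genotype, red for above and blue for below the median. The 6 lower rows are red in mice 12, 32, 24 and 46, 1 mouse of each genotype, while the 4 upper rows are deepest blue in mouse 11 and deepest red in mouse 24.

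The early and the late granule genes did not rank the mice alike. Summed over the 4 genes, primary granule transcript ranged from 89.6 CPM in mouse 11 to 368 CPM in mouse 24, a 4.11-fold range. The summed secondary granule genes ranged 1.67-fold, from 2684 CPM in mouse 47 to 4474 CPM in mouse 46, and the summed S100 genes 1.80-fold, from 2058 CPM in mouse 47 to 3702 CPM in mouse 12. Mouse 10 ranked 2 for the primary granule genes but 8 for both of the other sums. Mouse 46 ranked 1 for the secondary granule genes but 6 for the primary granule genes.

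The share of primary granule counts among the counts of the 10 genes put numbers to this difference. It was 4.54% (95% Wilson interval, 4.42% to 4.67%) in mouse 10 and 1.72% (1.64% to 1.79%) in mouse 11, although these mice had the same genotype and their secondary granule sums, 2892 and 2815 CPM, were close. The share was 2.70% in mouse 12, 2.81% and 2.08% in mice 32 and 34, 3.26%, 1.95% and 4.49% in mice 22, 23 and 24, and 2.30% and 2.92% in mice 46 and 47. By genotype it was 2.99% ± 1.44 (SD, n = 3) in Ddx41+/+ Trp53+/+, 2.44% ± 0.520 (SD, n = 2) in Ddx41+/- Trp53+/+, 3.23% ± 1.27 (SD, n = 3) in Ddx41+/+ Trp53+/- and 2.61% ± 0.438 (SD, n = 2) in Ddx41+/- Trp53+/- mice. The intervals cover counting error only. The differences between the genotype means were smaller than the SD among Ddx41+/+ mice. The largest of them was above the SD of both Ddx41+/- genotypes, which rest on n = 2.

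**Figure D3:**
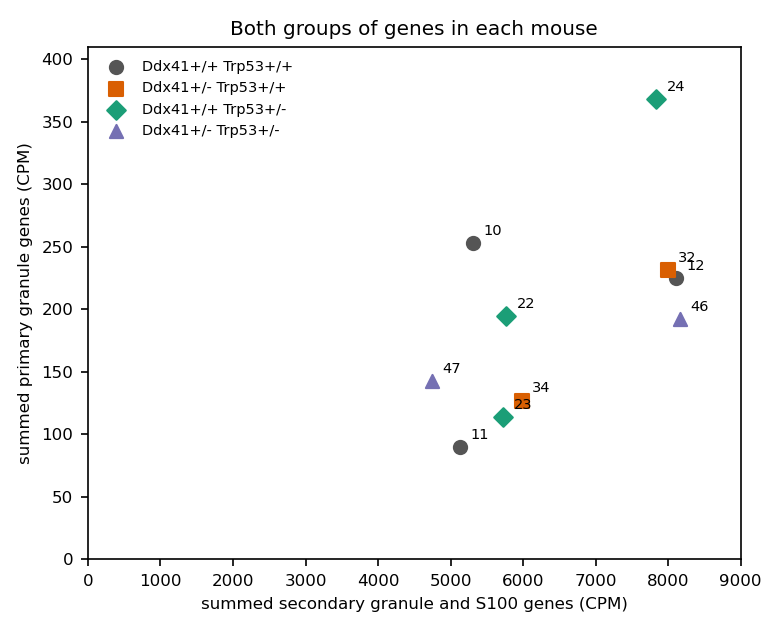
Summed CPM of the 4 primary granule genes (vertical axis) against the summed CPM of the 6 secondary granule and S100 genes (horizontal axis), 1 point per mouse, with the genotype as color and shape and the replicate number beside the point. Mice 12, 32, 24 and 46 form the right side of the plot, and mice 10 and 11 differ 2.82-fold in height at almost the same horizontal position.

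As a description over the 10 mice, Pearson's r of log2 CPM was 0.845 to 0.979 for the 6 pairs of primary granule genes (median 0.933). It was 0.949 to 0.989 for the 15 pairs of secondary granule and S100 genes (median 0.970). Across these groups, the 24 pairs had r of 0.523 to 0.699 (median 0.603). The points share their libraries and scaling, and no test was made.

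Loss of 1 Ddx41 allele was compared first in mice with intact Trp53. No granule gene was higher or lower in Ddx41+/- R2 cells past the test. A gene counted as called when it changed more than 1.5-fold with an edgeR adjusted p under 0.05. This held for 0 of the 10 genes, against 0.540% of all tested genes. At an unadjusted p under 0.05 there were 0 of 10 with edgeR and 0 with DESeq2, against 9.64% of all tested genes with edgeR, and 0 of the 10 had groups that did not overlap, against 24.9%. The log2 fold changes ran from -0.14 (Elane) to 0.28 (Lcn2, SE 0.216, edgeR adjusted p = 0.746), with 7 above and 3 below 0 and a median of 0.15, against 0.0010 over all tested genes. The 95% intervals of the secondary granule and S100 genes lay between -0.36 and 0.74 and those of the primary granule genes between -1.11 and 1.03. Without replicate 12, the median of the secondary granule and S100 genes was 0.45 instead of 0.19. In that refit 3 of the 10 genes had an unadjusted p under 0.05 (edgeR), but the smallest adjusted p was 0.234. The share of all tested genes under that unadjusted limit was not determined for the refit. Without replicate 32, the median of the 10 genes was -0.12. Over all genes, 64 were called, 13 without replicate 34, 26 without replicate 32 and 103 without replicate 12.

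With 1 Trp53 allele lost, Ddx41+/- and Ddx41+/+ mice were compared in the same way. The primary granule genes were lower on average in the Ddx41+/- mice, with Elane at 24.1 ± 6.53 CPM (SD, n = 2) against 35.9 ± 23.3 (SD, n = 3), but the Ddx41+/- values lay inside the Ddx41+/+ range. The log2 fold changes of the primary granule genes were -0.14 (Ctsg) to -0.58 (Elane, SE 0.457, edgeR adjusted p = 1.000), with 95% intervals between -1.55 and 0.69. Those of the secondary granule and S100 genes were -0.027 (S100a8) to 0.036 (Lcn2), with intervals between -0.57 and 0.52. Of the 10 genes, 0 were called, against 0.0422% of all tested genes, and 0 had an unadjusted p under 0.05 with edgeR (3.75% of all tested genes) or DESeq2. None of them had groups that did not overlap, against 20.0% of all tested genes. Without replicate 24, the Ddx41+/+ mouse with the most primary granule transcript, the median of the primary granule genes was 0.21 instead of -0.41. Over all genes, 5 were called, 1 without replicate 46, 2 without replicate 47 and 10 without replicate 23.

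Loss of 1 Trp53 allele was compared first with intact Ddx41. Ctsg, at 17.3 ± 8.57 CPM (SD, n = 3) in Trp53+/- and 12.5 ± 5.30 CPM (SD, n = 3) in Trp53+/+ mice, had the largest log2 fold change of the 10, 0.49 (SE 0.354, edgeR adjusted p = 0.718). The others were -0.00039 (Camp) to 0.28 (Mpo), 9 of 10 were above 0, and the median was 0.13 against 0.00049 over all tested genes. None was called, against 0.912% of all tested genes, none had an unadjusted p under 0.05 with edgeR (9.44% of all tested genes) or DESeq2, and none had groups that did not overlap, against 14.1%. The 95% intervals lay between -0.74 and 1.24 for the primary granule genes and between -0.43 and 0.55 for the others. Without replicate 24 the median of the 10 genes was -0.15, and over all genes 35 were called instead of 108.

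In mice that had lost 1 Ddx41 allele, Trp53+/- and Trp53+/+ mice were 2 against 2. The log2 fold changes were -0.25 (Elane) to 0.20 (Ctsg), 9 of 10 were below 0, and the median was -0.13 against -0.0045 over all tested genes. Camp was at 398 ± 136 CPM (SD, n = 2) in Trp53+/- and 453 ± 73.3 CPM (SD, n = 2) in Trp53+/+ mice, a log2 fold change of -0.19 (SE 0.211, edgeR adjusted p = 0.974). None of the 10 was called, against 0.169% of all tested genes, none had an unadjusted p under 0.05 with edgeR (5.41% of all tested genes) or DESeq2, and none had groups that did not overlap, against 37.3%. The 95% intervals lay between -1.33 and 1.13 for the primary granule genes and between -0.76 and 0.44 for the others. Without replicate 46 the median was -0.57, and without replicate 47 the median was 0.21. Over all genes, 20 were called, and 13 without replicate 34.

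The difference between the Ddx41 effects of the 2 Trp53 genotypes was tested as an interaction. All 10 interaction terms were below 0, from -0.12 to -0.44 on the log2 scale with a median of -0.25, and the 10 genes share the same mice. None was called, against 0.0675% of all tested genes, 0 had an unadjusted p under 0.05 with edgeR or DESeq2, against 5.01% with edgeR, and the smallest edgeR adjusted p was 1.000. The 4 comparisons share samples, so their directions are not independent.

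**Figure D4:**
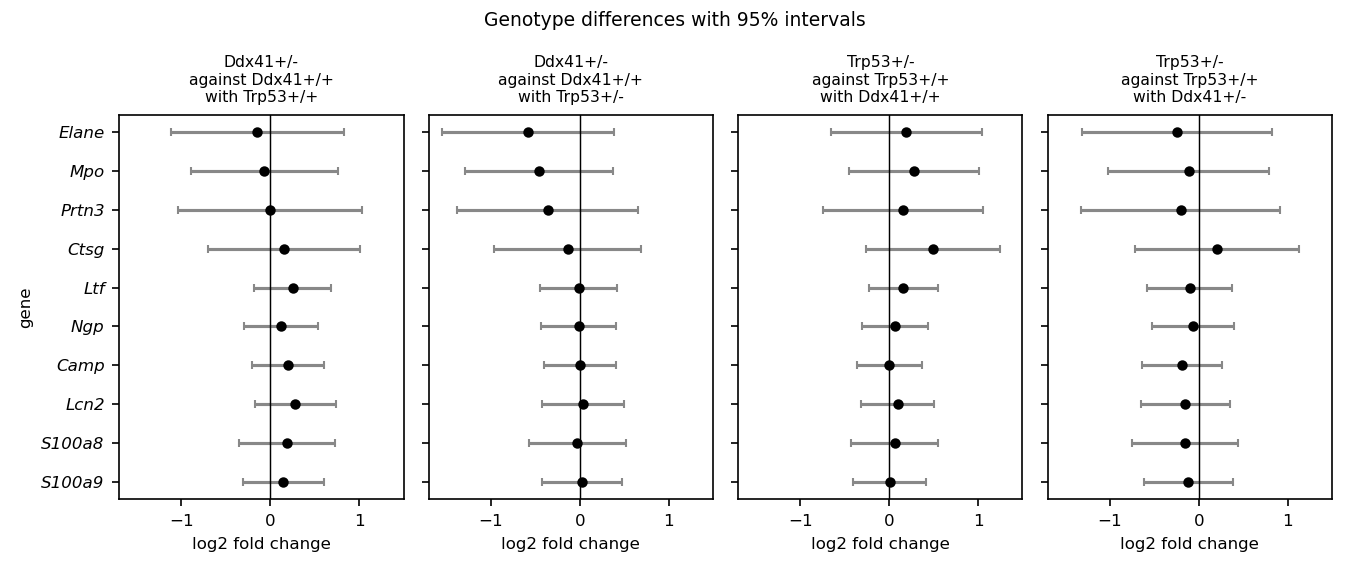
Log2 fold change (point) with its 95% interval (bar) for each of the 10 genes in the 4 comparisons of genotypes, from the edgeR fit to all 10 mice. All 40 intervals include 0, and the bars of the 4 primary granule genes are wider than those of the 6 others.

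The other neutrophil genes, from lists of known function, showed no genotype difference past the test either. Of 18 other granule and secreted neutrophil genes, 13 receptor and adhesion genes, 6 genes of the phagocyte NADPH oxidase and 8 granulocyte transcription factors, 0 were called in any of the 4 comparisons. In Ddx41+/- against Ddx41+/+ mice, the median log2 fold changes of these lists, in that order, were 0.26, 0.25, 0.28 and 0.26 with Trp53+/+, where the median was 0.19 for the secondary granule and S100 genes and -0.033 for the primary granule genes. They were 0.012, 0.15, 0.090 and 0.025 with Trp53+/-. In Trp53+/- against Trp53+/+ mice, they were 0.11, -0.052, 0.041 and 0.089 with Ddx41+/+ and -0.21, -0.16, -0.15 and -0.10 with Ddx41+/-.

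Across mice, most of these genes were closer to the late than to the primary granule genes. Of the 11836 tested genes outside the group, 5837 were closer to the late and 5999 to the primary granule genes. An r over 0.9 with the late granule genes was found for 11 of the 18 granule and secreted genes and for 1 gene in each of the other 3 lists, against 49 of the 11836. Of the 18 granule and secreted genes, 15 had a higher Pearson's r with the mean of the secondary granule and S100 genes (median over the list 0.936) than with the mean of the primary granule genes (0.586). The highest were Anxa1, annexin A1 (0.984), the resistin-like Retnlg (0.982), Wfdc21 (0.982), the surface protein Cd177 (0.981) and the collagenase Mmp8 (0.974). Retnlg was at 80.2, 72.6 and 160 CPM in mice 10, 11 and 12, at 147 and 106 CPM in mice 32 and 34, at 96.8, 100.3 and 145 CPM in mice 22, 23 and 24, and at 150.2 and 78.8 CPM in mice 46 and 47. The exceptions were Ms4a3, a membrane protein of granulocyte and monocyte progenitors (0.889 with the primary and 0.449 with the other genes), Serpinb1a, an inhibitor of neutrophil serine proteases (0.866 and 0.766), and Fcnb, ficolin B (0.653 and 0.627).

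Ms4a3 was at 10.6, 3.21 and 6.43 CPM in mice 10, 11 and 12, at 6.45 and 6.10 CPM in mice 32 and 34, at 7.30, 3.34 and 11.9 CPM in mice 22, 23 and 24, and at 6.22 and 3.92 CPM in mice 46 and 47. It was thus highest in mice 24 and 10 and lowest in mouse 11, as Elane was. The receptors leaned to the late genes in 12 of 13 cases, with the chemokine receptor Cxcr2 highest (0.946), and Cxcr4 the exception (-0.193, against -0.0077 with the primary granule genes). All 6 oxidase genes leaned the same way, with Ncf1, a cytosolic subunit, at 0.953. The transcription factors leaned to the late genes in 6 of 8 cases, with a median r of 0.400 with the late and 0.210 with the primary granule genes. Cebpe, which drives the secondary granule program, was the highest of them, with r of 0.926 with the late and 0.605 with the primary granule genes, whereas Cebpa had 0.062 and 0.137.

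**Figure D5:**
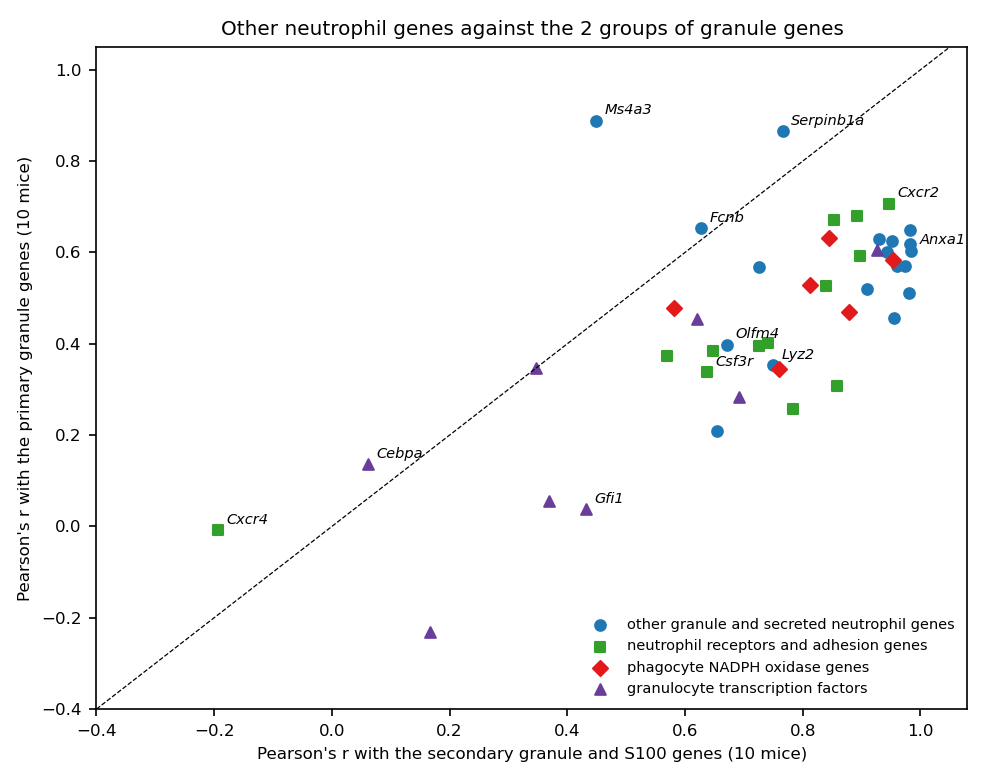
Pearson's r over the 10 mice of each of 45 other neutrophil genes with the mean log2 CPM of the secondary granule and S100 genes (horizontal axis) and of the primary granule genes (vertical axis), colored by list; the dashed line marks equal values and only some points are named. Most points lie below the line, and Ms4a3, at 0.449 on the horizontal and 0.889 on the vertical axis, lies farthest above it.

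The 10 genes outside the group with the pattern most like its mean over the 10 mice were Mctp1 (r = 0.972), Il1f9 (0.933), Arhgdib (0.926), Pgk1 (0.918), Clec12a (0.918), Actr2 (0.917), Dach1 (0.915), Ckap4 (0.911), Atxn10 (0.910) and Serpinb1a (0.909). In all, 14 of the other 11836 tested genes had an r over 0.9 with the mean of the group, whose median r over these genes was -0.019.

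Transcripts of other blood cells were also in the sort and were followed by marker lists in every mouse. Over the mice, the summed CPM was 422 to 729 for 13 monocyte and macrophage markers, 211 to 504 for 11 B cell markers, 67.8 to 263 for 9 eosinophil, basophil and mast cell markers, 83.6 to 105 for 7 megakaryocyte and platelet markers, 9.14 to 22.1 for 7 stem and progenitor markers and 8.12 to 19.2 for 8 T and NK cell markers. The stem and progenitor markers and the T and NK cell markers were highest in mouse 24 and lowest in mouse 11, as the primary granule genes were. B cell markers were highest in mouse 34 and lowest in mouse 11, monocyte and macrophage markers were highest in mouse 10 and lowest in mouse 24, and eosinophil, basophil and mast cell markers were highest in mouse 10 and lowest in mouse 11. Mouse 11, lowest for the primary granule genes, was thus also lowest for 4 of these 6 lists, and the part of other cell types in the level of the granule genes was not tested.

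Some markers of other cells passed the test between genotypes. In Ddx41+/- against Ddx41+/+ mice with Trp53+/+, Cd14, the monocyte co-receptor for lipopolysaccharide, rose with a log2 fold change of 1.58 (SE 0.235, edgeR adjusted p = 0.00339). So did the B cell genes Ebf1 (1.62) and Cd79a (1.17), 2 of 11 B cell markers, against 0.540% of all tested genes called in either direction. Ebf1 was at 6.57 CPM in mouse 32 and 15.2 CPM in mouse 34, against 2.33 to 4.57 CPM in mice 10, 11 and 12. Cd14 was the 1 of 13 monocyte and macrophage markers called, and the list as a whole had a median of -0.12 with 5 of 13 above 0. In Trp53+/- against Trp53+/+ mice with Ddx41+/+, Cd14 (1.36), the mast cell protease Cpa3 (1.36) and 5 of 11 B cell markers rose. Of all tested genes, 0.912% were called in this comparison in either direction. Among the B cell markers were Ebf1 (1.89) and Vpreb3 (1.75), the latter expressed in B cell precursors. Cd14 was again the 1 monocyte and macrophage marker called, and that list had a median of -0.57 with 2 of 13 above 0. No marker fell past the test, and none of the T and NK cell, megakaryocyte, erythroid or stem and progenitor markers was called in any of the 4 comparisons. In the other comparisons no marker of any list was called.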

How the data were processed

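RNA-seq of sorted R2 cells was analysed in 10 mice, each library from 1 mouse. The authors deposited whole-number read counts, listed by gene symbol and not normalized. The submitters' processing notes name mm10, FastQC 0.11.7, HISAT2 2.0.5 and featureCounts 1.5.2. The annotation and the strand setting of the counting were not given in the sources used here. The paper names a TruSeq poly(A) kit and the labels a stranded TruSeq mRNA kit. Mice 35 and 45, which the deposited table is named as leaving out, were not analysed here.

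Counts were fitted in R 4.3.3 with edgeR 4.0.16. The low-count filter by genotype kept 11846 genes and removed 12575. TMM scaling, 1 mean per genotype over all 10 mice, two-sided quasi-likelihood tests and Benjamini-Hochberg adjustment over all tested genes were used. A called gene had to change more than 1.5-fold with an adjusted p under 0.05. CPM used the scaled library sizes, and log2 CPM a prior count of 2. CPM per kb used the union of GENCODE M21 exons. Summed CPM of a list includes members under the filter. Alternatives were DESeq2 1.42.0, its size factors, other low-count filters, only the 2 genotypes compared, and each mouse left out. The precision is set by 2 or 3 mice per genotype, and counts without molecular identifiers are not independent molecules. On simulated counts, where 200 of 11846 genes were made to differ, the fit recovered 63.0% of those with a log2 difference of 1 for Ddx41+/- against Ddx41+/+ with Trp53+/+ and 61.6% with Trp53+/-. The 200 were drawn at random from all tested genes. These shares do not describe the 10 members, whose SD within genotypes was larger than that of 70.1% (Camp) to 96.3% (Prtn3) of the tested genes.

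The members and lists were chosen with earlier results of these data known. The genes named are the 10 members, the genes called in each list of neutrophil, monocyte and macrophage, B cell, T and NK cell, eosinophil, basophil and mast cell, megakaryocyte, erythroid, and stem and progenitor genes (at most 5 per comparison), up to 3 abundant genes of a list, the 10 genes most like the members, and Ddx41 and Trp53. Others named in the neutrophil lists were chosen after their values were seen. Listed genes whose symbol was not found in the table (Ly6g, Ighm, Trac and Epb42) were not analysed here. Figures and tables were made in Python 3.11.15 with pandas 2.3.3 and matplotlib 3.10.9.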

Additional observations from a re-analysis of the deposited data

How the results depend on the processing

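The 40 fold changes of the 10 genes were estimated again, which gave 200 values with 1 mouse left out and 200 values under other settings. None of the 200 values under other settings was called. The directions of the 40 fold changes were not stable: leaving out 1 mouse changed the sign of 35 of the 40 at least once, and other settings that of 4. Left-out mice took the log2 fold change of Ctsg from -0.68 to 0.60 (Ddx41+/- against Ddx41+/+ with Trp53+/+), those of Elane and Lcn2 from -0.96 to 0.072 and from -0.43 to 0.40 (with Trp53+/-), and those of Elane and Camp from -0.60 to 0.33 and from -0.59 to 0.13 (Trp53+/- against Trp53+/+ with Ddx41+/-). Others kept their sign. Lcn2 ran from 0.062 to 0.53 for Ddx41+/- against Ddx41+/+ with Trp53+/+. For Trp53+/- against Trp53+/+ with Ddx41+/+, Ctsg ran from 0.012 to 0.78 and Ltf from 0.010 to 0.43. Without the low-count filter, 3 had an adjusted p under 0.05 at a fold change under 1.5, all for Ddx41+/- against Ddx41+/+. With Trp53+/- these were Mpo (log2 fold change -0.46, edgeR adjusted p = 0.00142) and Elane (-0.5825, edgeR adjusted p = 0.0171), the latter just under the fold change limit. With Trp53+/+ it was Lcn2 (0.28, edgeR adjusted p = 0.0314). The fold changes of these 3 were nearly those of the main fit, and it was the SE that became smaller. It was 0.098 against 0.391 in the main fit for Mpo, 0.145 against 0.457 for Elane and 0.081 against 0.216 for Lcn2. The genes called over the whole table for Ddx41+/- against Ddx41+/+ were 64 with Trp53+/+ (129 with DESeq2, 243 without the filter, 13 to 103 with 1 mouse left out) and 5 with Trp53+/- (39 without the filter, 2 with at least 10 counts in every library, 1 to 10 with 1 mouse left out). For Trp53+/- against Trp53+/+ they were 108 with Ddx41+/+ (250 without the filter, 66 with only the 2 genotypes compared, 35 to 115 with 1 mouse left out) and 20 with Ddx41+/- (32 with DESeq2, 67 without the filter, 37 with only the 2 genotypes compared, 13 to 16 with 1 mouse left out), and for the interaction 8 (28 with DESeq2, 100 without the filter). The cause was not tested. Where a genotype was left with 1 mouse, that mouse was assumed to vary like the others. No paired analysis was possible because the genotypes share no replicate numbers.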

Other observations

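Olfm4, which encodes the granule protein olfactomedin 4 made by only some neutrophils, varied more over the mice than any of the 10 granule and S100 genes. It was at 2.06, 9.62 and 15.6 CPM in the Ddx41+/+ Trp53+/+ mice 10, 11 and 12, at 29.1 and 2.92 CPM in the Ddx41+/- Trp53+/+ mice 32 and 34, at 11.5, 9.33 and 25.7 CPM in the Ddx41+/+ Trp53+/- mice 22, 23 and 24, and at 11.04 and 5.83 CPM in the Ddx41+/- Trp53+/- mice 46 and 47. The highest mouse was 14.2-fold above the lowest. Mouse 10, which ranked 2 for primary granule transcript, was lowest for Olfm4.

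Prg2, which encodes the major basic protein of eosinophil granules, was at 174, 33.04 and 102 CPM in mice 10, 11 and 12, at 52.2 and 53.3 CPM in mice 32 and 34, at 64.7, 76.2 and 98.4 CPM in mice 22, 23 and 24, and at 78.6 and 40.8 CPM in mice 46 and 47. Its range was 5.26-fold, and as for the primary granule genes the lowest mouse was 11, while the highest was mouse 10. Its ranges overlapped between the genotypes, except that both Ddx41+/- Trp53+/+ mice were below the 3 Ddx41+/+ Trp53+/- mice, genotypes that no comparison sets against each other. Both genes were chosen after their values were seen.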
